A study of Saccharomyces cerevisiae with 8 samples.

Results

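The strain by rapamycin interaction measured here is the difference between 2 yeast strains in their response to a drug. For each feature of the count table it is the log2 change with rapamycin in the ubc9-1 strain minus the log2 change with rapamycin in wild type (WT). All 7126 features of the count table are members; 6731 had a count in at least 1 library and 6115 had enough counts to be tested. A value above 0 means that a feature went down less, or up more, in ubc9-1 than in WT, and a value below 0 the reverse. Saccharomyces cerevisiae, the budding yeast, was grown in YPD medium; from total RNA, molecules of 50 to 100 nt were taken and sequenced. The 4 groups held 2 libraries each. They were WT (strain label UBC9) left untreated, WT given rapamycin at 100 nM for 30 min, cells of the ubc9-1 mutant strain left untreated, and ubc9-1 cells given the same dose for the same time. The labels name no vehicle for the untreated cells, and they do not say whether the replicates came from separate cultures. What the p-values measure is thus the spread among these 8 libraries, and that spread may be technical.

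Rapamycin inhibits TORC1, the kinase complex that couples growth to nutrients. In yeast, inhibition of TORC1 is known to shut down the synthesis of rRNA, tRNA and ribosomal components and to release transcription factors that turn on genes for poor nitrogen sources. Ubc9 is the enzyme that conjugates SUMO, a small protein modifier, to its substrates, and ubc9-1 is a mutant allele of the essential UBC9 gene. The question set by the series title is how TORC1, through SUMO, controls RNA polymerase III, which makes tRNA, 5S rRNA and a few other short RNAs.

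The libraries held 14304014 to 21061460 assigned counts. Nuclear tRNA genes took 7.59% to 24.4% of them and snoRNAs 7.77% to 19.8%. Fragments of 50 to 100 nt hold whole tRNAs and many whole snoRNAs, but only pieces of mRNAs and of longer noncoding RNAs. The value of an mRNA or of a longer noncoding RNA is thus that of its fragments. Levels below are CPM, counts relative to the size of the library after TMM scaling, and they are set side by side only within a feature. Counts were fitted with the edgeR quasi-likelihood test and a feature was called at an adjusted p under 0.05. Errors of log2 values are approximate standard errors (SE) from that fit.

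Measured over all tested features, responses to rapamycin were smaller in ubc9-1 than in WT, as a description without a test. The median absolute log2 response was 0.67 in WT and 0.35 in ubc9-1, and the SD across features was 1.26 and 0.74. A response past 2 on the absolute log2 scale was measured for 572 features in WT and 117 in ubc9-1. Among the tested features, 51 had a group with all libraries at 0. They are kept in these counts and SDs, and the size of a response against a group at 0 is not well defined. Of the 1248 features called in the WT response, 1228 had a smaller absolute response in ubc9-1, and the median ratio of the ubc9-1 to the WT response was 0.327. That comparison favours WT because WT chose the features. Chosen the other way, of the 91 features called in the ubc9-1 response only 16 had a smaller absolute response in WT. Of the 89 features called in both responses, 3 moved in opposite directions. The 2 responses use no library in common. They correlated with a Pearson r of 0.424 across the 6115 features, which are not independent and whose values within a strain come from the same 4 libraries.

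**Figure D1:**
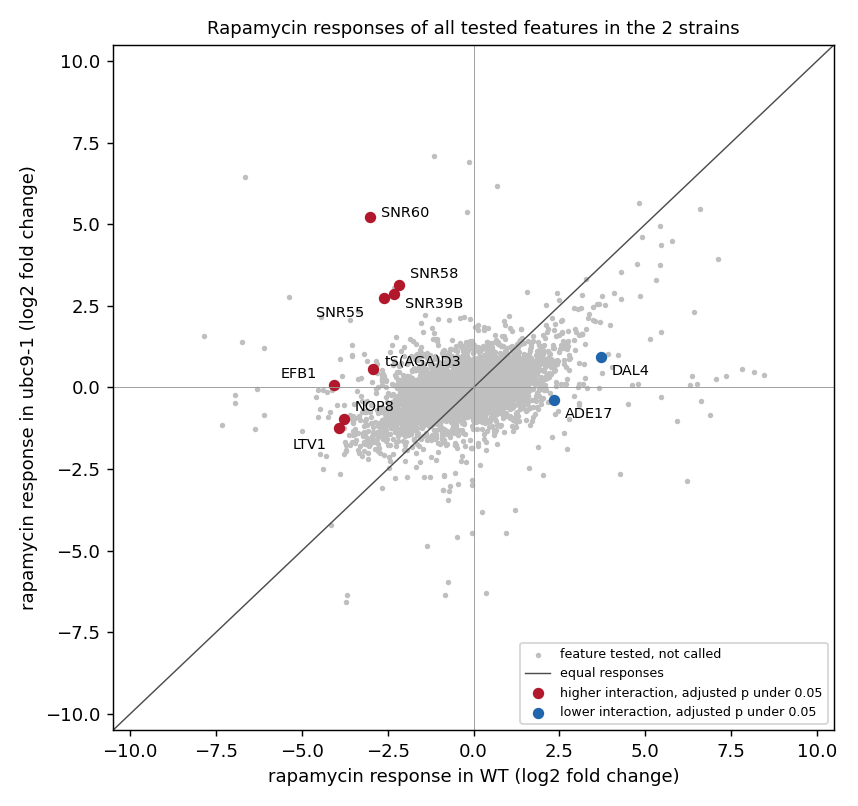
Log2 rapamycin response of each of the 6115 tested features in WT (x axis) and in ubc9-1 (y axis), with the line of equal responses. The 8 features with a called higher interaction lie above that line and the 2 with a called lower interaction below it, and the grey cloud is wider along the WT axis, with an SD of 1.26 against 0.74.

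The interaction itself was called for few features. With edgeR, 8 of 6115 features (0.131%) had a higher interaction value and 2 (0.0327%) a lower one, 10 (0.164%) in all. DESeq2's Wald test called 126 features, all 10 of these among them, and limma on log2(CPM + 1) called 5. At an unadjusted p under 0.05, 475 features (7.77%) were higher and 387 (6.33%) lower. These shares, and the 126 DESeq2 calls among all 6115 features, are the background of the counts of list members below. The 10 features were the snoRNAs SNR60, SNR55, SNR58 and SNR39B, the serine tRNA gene tS(AGA)D3 and the mRNA features EFB1, NOP8, LTV1, DAL4 and ADE17. In WT, the response to rapamycin passed the threshold for all 10. In ubc9-1 it passed for 3, SNR58, SNR39B and SNR60. The WT and ubc9-1 responses had opposite signs in 7 of the 10, but both passed the threshold only in those 3. In the others of the 7 the sign is of a ubc9-1 response that did not pass. SNR58, SNR39B, SNR60 and EFB1 were called in all 8 fits that left out 1 library and in all 8 other alternatives. The other 6 calls depended on single libraries, as given beside each.

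**Figure D2:**
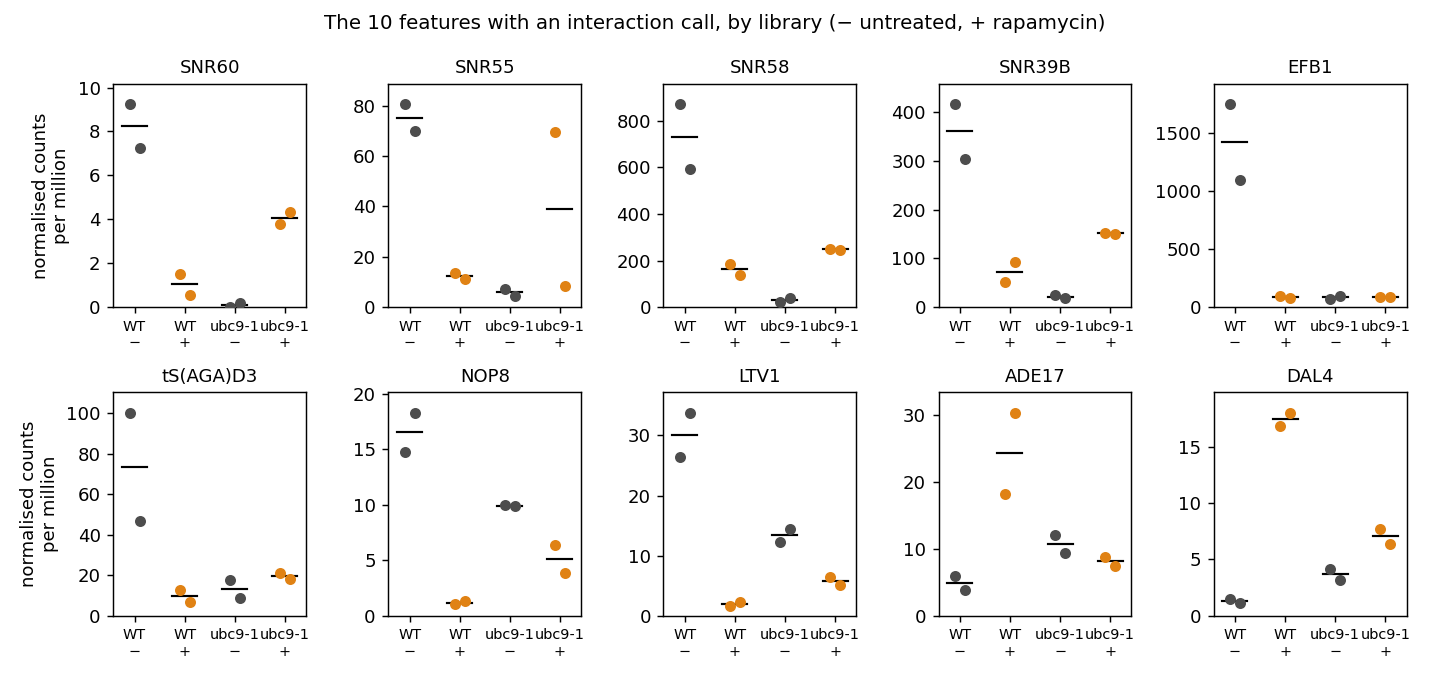
CPM after TMM scaling (y axis, from 0, a scale of its own for each feature) of the 10 called features in the 8 libraries; points are libraries, lines are group means, and rapamycin is orange. SNR58, SNR39B and SNR60 fell with rapamycin in WT and rose in ubc9-1, EFB1 is high in untreated WT alone, and DAL4 and ADE17 are highest in WT with rapamycin.

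The 4 called snoRNAs belong to the C/D box class, short nucleolar RNAs that guide ribose methylation of rRNA and are named for 2 short conserved stretches. Box C lies near the 5′ end and box D near the 3′ end, and proteins bind both to build the guide particle. The sequences of the 4 genes are shown because they carry the largest interaction values among the called features; they were read from the R64 genome in the direction of the gene, and capitals mark the letters TGATGA of box C and CTGA of box D. SNR58 lies at chrXV:136088-136183 on the minus strand, SNR39B at chrVII:366374-366469 on the minus strand, SNR60 at chrX:349130-349233 on the minus strand and SNR55 at chrXII:794697-794794 on the minus strand.
SNR58: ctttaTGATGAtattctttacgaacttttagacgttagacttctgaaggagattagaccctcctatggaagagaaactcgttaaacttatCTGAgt
SNR39B: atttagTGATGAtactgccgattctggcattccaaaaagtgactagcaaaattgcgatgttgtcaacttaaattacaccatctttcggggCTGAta
SNR60: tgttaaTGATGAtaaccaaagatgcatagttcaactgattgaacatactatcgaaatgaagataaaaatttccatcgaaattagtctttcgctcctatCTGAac
SNR55: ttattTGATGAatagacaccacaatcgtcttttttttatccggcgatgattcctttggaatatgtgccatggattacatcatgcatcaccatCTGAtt
All 4 hold both boxes. Among the 41 tested C/D snoRNAs the box C letters start within the first 20 bases in 31 and the box D letters end within the last 20 in 39, searched on the gene's strand only, so the letters do not set the called ones apart.

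SNR58, a guide for methylation of the large-subunit rRNA, had 873 and 593 CPM in untreated WT and 187 and 138 with rapamycin. In ubc9-1 it had 19.6 and 37.1 CPM untreated and 251 and 246 with rapamycin. Rapamycin thus went with a lower level in WT and a higher one in ubc9-1, and no 2 of the 4 groups overlapped. The interaction was 5.31 ± 0.58 (log2, SE), with an adjusted p of 0.000916 in edgeR, made of a WT response of -2.18 and a ubc9-1 response of 3.13.

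SNR39B, another guide for the large-subunit rRNA, had 418 and 305 CPM in untreated WT, 52.1 and 92.4 in WT with rapamycin, 23.8 and 17.6 in untreated ubc9-1, and 153 and 150 in ubc9-1 with rapamycin. The order of the 4 groups was that of SNR58, again without overlap. Its interaction was 5.19 ± 0.55 with an adjusted p of 0.000916 in edgeR.

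SNR60 showed the same order at far lower counts. Untreated WT had counts of 104 and 131, against 35 and 16 in WT with rapamycin, 0 and 4 in untreated ubc9-1 and 50 and 66 in ubc9-1 with rapamycin. The fitted interaction was 8.24 ± 0.97 with an adjusted p of 0.00151 in edgeR. Because untreated ubc9-1 is close to 0, the size of that value depends on the prior count of the fit, and it ran from 6.51 to 11.33 over the 16 choices of 1 library per group. The SNR60 gene overlaps the feature YJL047C-A, and reads over both are not assigned to either.

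SNR55, a guide for the small-subunit rRNA, had 80.6 and 69.8 CPM in untreated WT, 13.5 and 11.3 in WT with rapamycin, and 7.28 and 4.54 in untreated ubc9-1. In ubc9-1 with rapamycin its libraries disagreed, with 69.7 CPM in replicate 1 and 8.17 in replicate 2. The interaction was 5.33 ± 0.93 with an adjusted p of 0.0445 in edgeR. Of the 8 fits that left out 1 library, it was called in the 1 without replicate 2 of ubc9-1 with rapamycin, at 6.16, and in no other; without replicate 1 of that group the value was 3.08 with an adjusted p of 0.0636. SNR55 stands between SNR61 and SNR57 on the same strand of chromosome XII. These neighbours, named after their values were seen, had interactions of 0.27 ± 0.58 and 0.29 ± 0.54, and neither was called.

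The C/D box class as a whole lay above 0. Of 41 tested members, 39 had a value above 0, against 47.5% of all tested features, and the median was 0.72 against -0.05 for all features. At an unadjusted p under 0.05, 19 members (46.3%) were higher and 0 lower, against 7.77% and 6.33% of all features. EdgeR called 4, DESeq2 11 and limma 4. The class median of the response was -0.28 in WT and 0.62 in ubc9-1, and the responses had opposite signs in 30 of 41 members. The response was called for 6 members in WT and 4 in ubc9-1, against 1248 and 91 of all 6115 features. Most of these signs are thus of responses that did not pass the threshold. Without drug, 0 of the 41 members were above WT in ubc9-1, with a median log2 difference between the strains of -1.09; with rapamycin that median was -0.10. Just past the threshold were SNR69, at 3.19 ± 0.64 (adjusted p = 0.0683), and SNR40, at 2.52 ± 0.51 (adjusted p = 0.0691), both methylation guides named after their values were seen. SNR40 had 11267 and 9580.3 CPM in untreated WT, 9994 and 5906 in WT with rapamycin, 2143 and 2637 in untreated ubc9-1 and 10625 and 10216 in ubc9-1 with rapamycin, so that untreated ubc9-1 alone stood apart. U3 (SNR17A), which acts in the cleavage of pre-rRNA, had an interaction of 0.36 ± 0.47 and was not called. Its gene has 490 bases, so U3 was measured as pieces. The class median ran from 0.30 without replicate 2 of untreated ubc9-1 to 1.35 without replicate 1 of that group. Scaled by snoRNAs, it became -0.04 by construction, while all features moved to a median of -0.96.

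H/ACA box snoRNAs, which guide pseudouridylation of rRNA, did not show that shift. Of the 27 tested, 17 were above 0, the median was 0.12, and 0 were called by edgeR, DESeq2 or limma, with 0 higher and 1 lower at an unadjusted p under 0.05. That 1 was SNR30, an H/ACA RNA needed for cleavage of the pre-rRNA. SNR30 had 2140 and 3054 CPM in untreated WT, 10473 and 9268 in WT with rapamycin, 1867 and 3306 in untreated ubc9-1 and 3179.9 and 4252 in ubc9-1 with rapamycin. WT with rapamycin stood above all other libraries, untreated WT lay within the range of untreated ubc9-1, and the 2 ubc9-1 groups overlapped. Its interaction was -1.40 ± 0.53 (adjusted p = 0.279 in edgeR). No test compared the 2 snoRNA classes with each other.

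**Figure D3:**
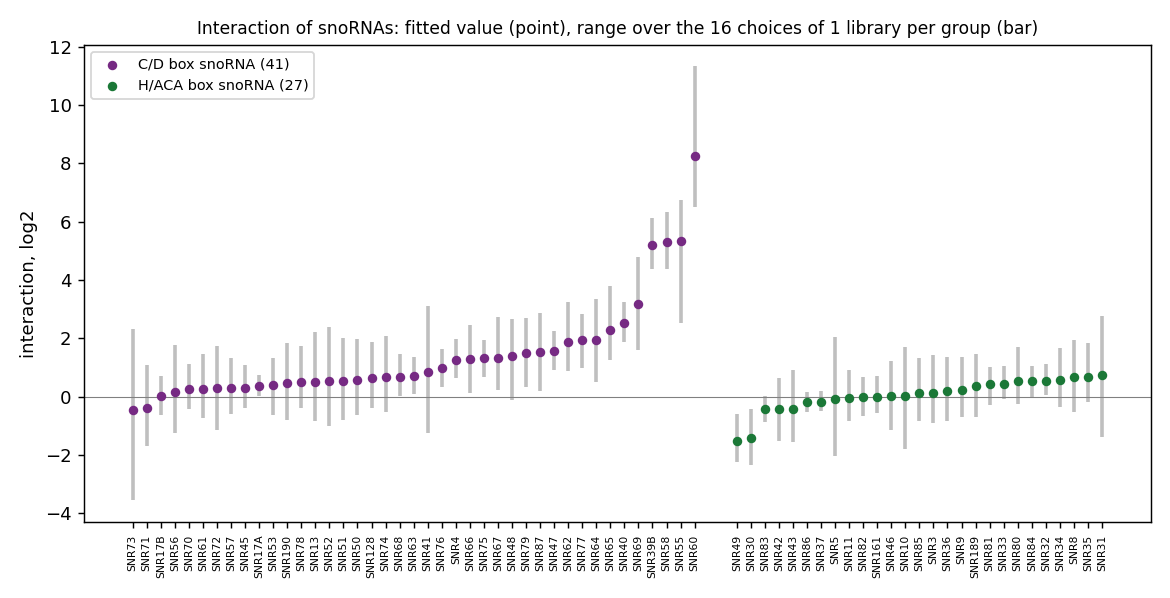
Interaction on the log2 scale (y axis) of the 41 tested C/D box and 27 tested H/ACA box snoRNAs, ordered by value within a class; points are fitted values and bars the range over the 16 choices of 1 library per group. SNR60, SNR55, SNR58 and SNR39B stand at 5.19 to 8.24, while the H/ACA members lie between -1.51 and 0.75.

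EFB1 encodes translation elongation factor 1 beta, and the methylation guide snR18 lies in its intron. EFB1 had 1749 and 1096 CPM in untreated WT, 91.7 and 79.97 in WT with rapamycin, 72.8 and 94.2 in untreated ubc9-1 and 87.3 and 88.2 in ubc9-1 with rapamycin. Both untreated WT libraries stood far above the other 3 groups, which overlapped. The interaction was 4.12 ± 0.52 with an adjusted p of 0.00242 in edgeR, from a WT response of -4.05 and a ubc9-1 response of 0.07. EFB1 spans chrI:142174-143160 and snR18 chrI:142367-142468 on the same strand. The snR18 feature had 0 counts in every library because reads over both features were not assigned. Whether the reads counted for EFB1 come from its mRNA or from the edges of the snoRNA was not tested, so the value may not be that of an mRNA. Of the 31 translation factor mRNAs tested, EFB1 included, 17 were above 0, the median was 0.01, and 1, EFB1, was called.

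Nuclear tRNA genes lay above 0 as a class. Of 274 genes, 263 were tested and 250 of those had a value above 0. The median was 1.28, from a median response of -1.49 in WT and -0.26 in ubc9-1. At an unadjusted p under 0.05, 114 genes (43.35%) were higher and 3 (1.14%) lower, against 7.77% and 6.33% of all features. EdgeR called 1, DESeq2 40 and limma 0. With the replicate number as a block, edgeR called 134 of the 263 higher, against 395 of all 6115 features in either direction. The median log2 difference between the strains was -1.30 without drug and 0.01 with rapamycin. Leaving out single libraries moved the median between 0.65 and 1.90, without a change of sign, and it stayed above 0 under all 4 scalings, at 0.81 with total counts and 0.52 with snoRNA factors. The lowest of those values came without replicate 1 of untreated WT, and the highest without replicate 1 of untreated ubc9-1. Genes with the same sequence can share reads, since by the file headers a read that aligned to several places was counted at each. The 263 values are thus far from independent, and counts were also summed over the 41 anticodon families. Such a sum holds a read once for each place where it was counted.

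The called gene, tS(AGA)D3, is 1 of 11 genes for the serine tRNA with anticodon AGA. It lies at chrIV:1305630-1305712 on the plus strand. Its sequence is shown beside a copy from another chromosome, tS(AGA)B at chrII:227075-227156 on the plus strand, because 10 of the 11 genes share 1 sequence and tS(AGA)D3 alone differs. Capitals mark GGTTCGA, core letters of the B box, the internal promoter element that RNA polymerase III's factor TFIIIC binds, searched on the gene's strand only.
tS(AGA)D3: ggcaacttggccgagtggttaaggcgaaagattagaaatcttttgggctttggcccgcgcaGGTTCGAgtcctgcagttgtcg
tS(AGA)B: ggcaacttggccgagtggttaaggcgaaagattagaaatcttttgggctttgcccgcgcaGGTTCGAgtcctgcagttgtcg
The 2 sequences have lengths of 83 and 82 bases and an edit distance of 1, and both hold these letters, as do 136 of 274 nuclear tRNA genes (49.6%). tS(AGA)D3 had 100.2 and 46.9 CPM in untreated WT, 12.6 and 6.84 in WT with rapamycin, 17.9 and 8.74 in untreated ubc9-1, and 21.02 and 18.4 in ubc9-1 with rapamycin. Untreated WT was above the rest, and WT with rapamycin overlapped untreated ubc9-1. The interaction was 3.49 ± 0.61 with an adjusted p of 0.0445 in edgeR. It was called in 2 of the 8 fits that left out 1 library, those without replicate 2 of untreated WT (3.94) and without replicate 1 of untreated ubc9-1 (4.09); in the other 6 it lay between 2.87 and 3.99. The 11 genes of the family lay between 2.57 and 3.49.

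Summed over families, the values of nuclear tRNA were above 0 for 39 of 41 families, with a median of 1.31. EdgeR called 0 families, against 18 of all 5893 features of that table (0.305%), DESeq2 5 and limma 0. With the replicate number as a block, edgeR called 23 of the 41. Nuclear tRNA took a larger share of replicate 1 in 4 of 4 groups, but the labels do not say what the numbers mark. The number of called families thus depends on the model. At an unadjusted p under 0.05, 20 families were higher and 1 lower, against 7.26% and 6.33% of those features. The 4 highest were tS(AGA), tL(UAA), tF(GAA) and tL(CAA). The tS(AGA) family had 4208 and 2087 CPM in untreated WT, 655 and 329.9 in WT with rapamycin, 1329 and 489 in untreated ubc9-1 and 1157 and 849 in ubc9-1 with rapamycin. Both untreated WT libraries were above all others, and the ubc9-1 groups overlapped. The interaction was 2.82 ± 0.68 with an adjusted p of 0.115 in edgeR; without replicate 1 of untreated ubc9-1 it was 3.74 and passed, at 0.0444. The leucine family tL(UAA) was at 2.35 ± 0.63, the phenylalanine family tF(GAA) at 2.34 ± 0.65 and the leucine family tL(CAA) at 2.33 ± 0.59. These 3 were called by DESeq2, which did not call tS(AGA), and not by edgeR. The phenylalanine family had 9484 and 4218 CPM in untreated WT and 902 and 442 with rapamycin, against 2191 and 998 in untreated ubc9-1 and 863 and 724 with rapamycin. Its level was lower with rapamycin in both strains, by -3.35 and -1.01 on the log2 scale, and the first of these passed the threshold.

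Families whose genes hold introns, which need splicing to become mature tRNA, were all above 0. The median over these 10 families was 1.64, and over the 31 families without introns 1.2; no test compared the 2 kinds. At gene level all 57 tested genes of the intron families were above 0, with a median of 1.72, and 42 of them (73.7%) were higher at an unadjusted p under 0.05, while edgeR called 0, DESeq2 17 and limma 0. The 206 tested genes without introns had a median of 1.16, and 72 (34.95%) were higher at that unadjusted p. The median response of the intron families' genes was -2.30 in WT and -0.72 in ubc9-1, against -1.309 and -0.245 for the genes without introns. The intron families' genes thus also had the larger fall in WT. The families with the highest values, tS(AGA) and tL(UAA), have no introns. Of the 21 tested mRNAs for tRNA processing and export, 12 were above 0 with a median of 0.64, 0 were called by edgeR and limma and 1 by DESeq2, and 3 were higher at an unadjusted p under 0.05.

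Of the 4 lowest families, the glycine family tG(GCC) had a value of -1.68 ± 0.73 (adjusted p = 0.324). It had 102600 and 71890 CPM in untreated WT, 93470 and 65200 in WT with rapamycin, 70680 and 14560 in untreated ubc9-1 and 12460 and 11810 in ubc9-1 with rapamycin. Both libraries of ubc9-1 with rapamycin were below all others, and the untreated ubc9-1 libraries were far apart. One sequence is shared by all 16 tG(GCC) genes, given here from tG(GCC)C at chrIII:142701-142771 on the minus strand, with the same core letters in capitals, because the genes' counts nevertheless differ.
tG(GCC)C: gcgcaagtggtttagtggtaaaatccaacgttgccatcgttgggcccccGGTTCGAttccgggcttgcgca
In 3 of the 16 genes, the printed one among them, the mean count was 332800 to 338583 and the interaction -1.81 to -1.77, while the other 13 had mean counts of 118 to 2317 and interactions of 0.44 to 0.83. Identical genes cannot be told apart by reads within them, so the family's negative value rests on the 3 genes to which most of its alignments were assigned, and gene values are uncertain. If every read had been counted at each of the 16 copies, their counts would be alike. How the alignments were kept was not tested. The threonine family tT(UGU) was at -0.21 ± 0.65, the glutamine family tQ(UUG) at 0.03 ± 0.71 and the serine family tS(UGA) at 0.19 ± 0.82, none of which was called.

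**Figure D4:**
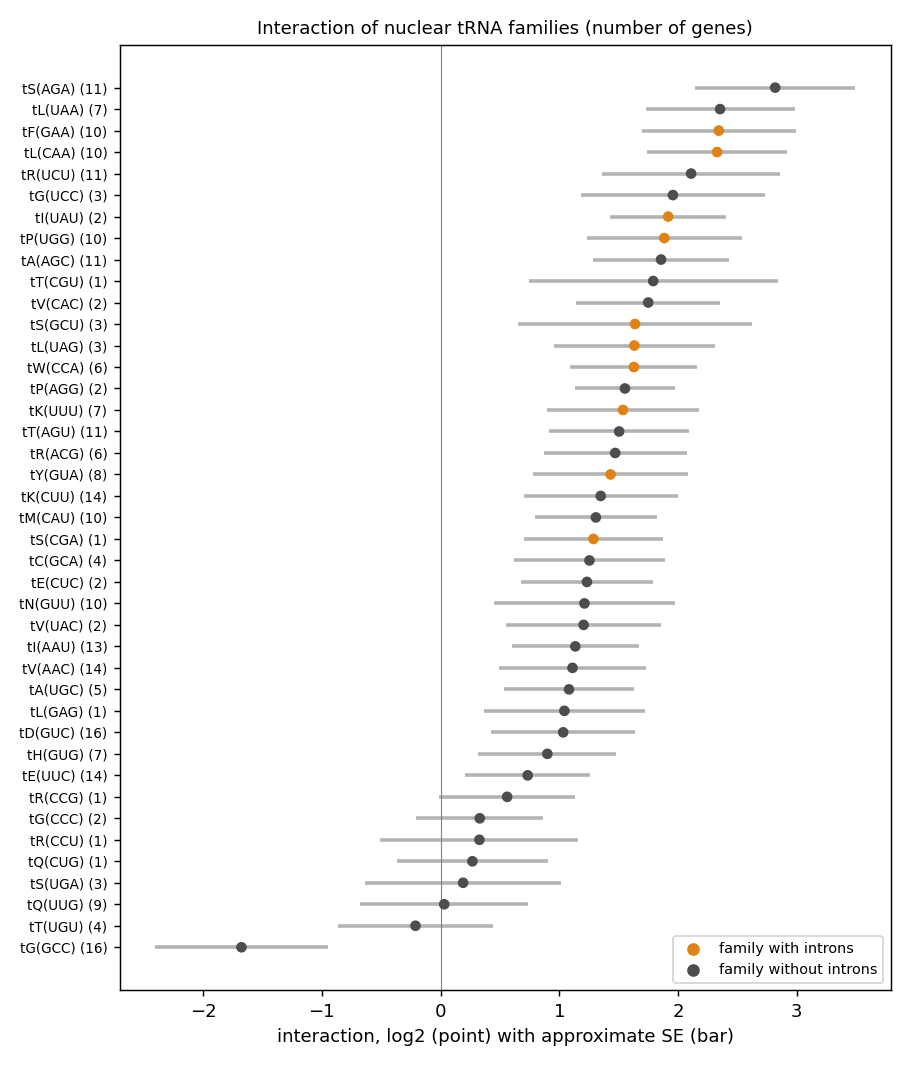
Interaction on the log2 scale (x axis) of the 41 nuclear tRNA families, named by amino acid letter and anticodon with the number of genes in parentheses; points are fitted values, bars are approximate SE, and families with introns are orange. All but tT(UGU) and tG(GCC) are above 0, from tQ(UUG) at 0.03 to tS(AGA) at 2.82.

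Other products of RNA polymerase III had smaller values and none was called by edgeR, DESeq2 or limma. Among the RNAs named in this paragraph, only SNR52 has a gene within the selected size range. The others are longer and were measured as pieces, so their values are not like for like with those of tRNA. Of 7 tested, 6 were above 0, with a median of 0.58, and 0 passed an unadjusted p of 0.05. Without replicate 1 of untreated ubc9-1 that median was 1.35. The 5S rRNA genes RDN5-1 and RDN5-6 are both in the list, with nearly the same counts and the same value of 1.07. They are close to 1 measurement, so the count above 0 and the median do not rest on independent values. The 5S rRNA gene RDN5-1 had 277650 and 144240 CPM in untreated WT, 86472 and 62679 in WT with rapamycin, 329400 and 136400 in untreated ubc9-1 and 195000 and 151390 in ubc9-1 with rapamycin. WT with rapamycin was below the other groups, which overlapped, and the replicates of untreated cells were far apart in both strains. The interaction was 1.07 ± 0.61 (adjusted p = 0.470); over the 16 choices of 1 library per group it ran from -0.38 to 2.66. RPR1, the RNA of RNase P, was at 0.66 ± 0.47, the U6 snRNA SNR6 at 0.58 ± 0.69, the snoRNA SNR52 at 0.53 ± 0.66 and SCR1, part of the signal recognition particle, at -0.55 ± 0.50. The spliceosomal snRNAs LSR1 and SNR19, products of RNA polymerase II, were at -0.05 ± 0.50 and 0.19 ± 0.59.

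Of the 28 mRNAs of the RNA polymerase III machinery, 19 were above 0 with a median of 0.38; 0 were called by edgeR, DESeq2 or limma, and 4 were higher and 4 lower at an unadjusted p under 0.05. RPO31, the largest subunit of the polymerase, was at 1.22 ± 0.39 and the polymerase subunit RPC25 at 2.01, both with an unadjusted p under 0.05 (0.0077 and 0.0120). Those lower at that level were BRF1, a subunit of the initiation factor TFIIIB, at -1.55, and the TFIIIC subunits TFC6 (-1.48), TFC7 (-1.22) and TFC3 (-1.19). BRF1 had 1.78 and 2.83 CPM in untreated WT, 8.38 and 5.73 in WT with rapamycin, 5.41 and 5.71 in untreated ubc9-1 and 6.30 and 5.14 in ubc9-1 with rapamycin, so untreated WT alone was low. MAF1, the repressor of RNA polymerase III, was at 0.08. RPC25, BRF1, the TFIIIC subunits and MAF1 were named after their values were seen.

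Ribosome biogenesis mRNAs, which encode the factors that process pre-rRNA and assemble the subunits, were nearly all above 0. Of 117 tested, 114 were above 0 with a median of 1.33, and 72 (61.5%) were higher and 0 lower at an unadjusted p under 0.05, against 7.77% and 6.33% of all features. EdgeR called 2, DESeq2 16 and limma 0. The median response was -2.56 in WT and -1.17 in ubc9-1, so that the list was lower with rapamycin in both strains and by less in ubc9-1. The response was called in WT for 109 of the 117 and in ubc9-1 for 24, against 1248 and 91 of all 6115 features. The absolute response was smaller in ubc9-1 for 114 of the 117. The median difference between the strains was -0.72 without drug and 0.59 with rapamycin. The list median lay between 1.19 and 1.53 in the fits that left out 1 library. It was 0.84 with total counts and 0.44 with snoRNA factors, while relative to the median of all features it was 1.39 to 1.41 under the 4 scalings.

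The 2 called members were LTV1, a small-subunit assembly and export factor, and NOP8, a nucleolar protein of large-subunit assembly. LTV1 had 26.3 and 33.8 CPM in untreated WT, 1.68 and 2.29 in WT with rapamycin, 12.4 and 14.5 in untreated ubc9-1 and 6.37 and 5.07 in ubc9-1 with rapamycin. The 4 groups did not overlap, and the ubc9-1 libraries lay between the untreated and the treated WT libraries. The interaction was 2.68 ± 0.44 with an adjusted p of 0.0404 in edgeR. NOP8 had 14.8 and 18.3 CPM in untreated WT, 1.03 and 1.35 in WT with rapamycin, 9.95 and 9.90 in untreated ubc9-1 and 6.37 and 3.89 in ubc9-1 with rapamycin, again without overlap. Its interaction was 2.82 ± 0.50 with an adjusted p of 0.0445 in edgeR. Both were called in 1 of the 8 fits that left out 1 library, that without replicate 1 of untreated WT, at 2.87 and 2.99; in the other 7 LTV1 lay between 2.48 and 2.93 and NOP8 between 2.44 and 3.14.

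Genes of this class are known to carry the PAC and RRPE elements in their promoters. The stretches from 250 to 81 bases before the gene start of LTV1 (chrXI:176531-176700, plus strand) and NOP8 (chrXV:52848-53017, plus strand) are shown because both hold a match of each, and capitals mark GCGATGAG for PAC and AAAAATTTT for RRPE, either strand.
LTV1: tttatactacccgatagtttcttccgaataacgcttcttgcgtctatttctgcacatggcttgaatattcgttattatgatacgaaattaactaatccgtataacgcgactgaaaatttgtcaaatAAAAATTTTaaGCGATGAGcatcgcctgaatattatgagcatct
NOP8: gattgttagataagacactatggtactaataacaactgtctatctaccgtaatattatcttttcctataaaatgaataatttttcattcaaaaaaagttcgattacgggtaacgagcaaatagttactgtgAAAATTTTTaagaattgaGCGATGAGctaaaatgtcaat
Within 250 bases before the gene start, PAC letters were found on either strand in 50.4% of the 117 ribosome biogenesis genes and 3.8% of 5987 protein-coding genes, and RRPE letters in 69.2% and 6.7%. In LTV1 the 2 matches stand 113 and 124 bases before the start, and in NOP8 101 and 119. A match is a description of these letters and was not read as a binding site.

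Further members did not pass the adjusted threshold. BRX1, a large-subunit assembly factor, was at 3.62 ± 0.73 (adjusted p = 0.0691) and ENP2, a small-subunit factor, at 2.45 ± 0.48 (adjusted p = 0.0683). BUD20, a large-subunit export factor, was the feature nearest to the threshold, at 2.41 ± 0.44 with an adjusted p of 0.0515. SNU13, a protein of the C/D snoRNA particle, was at 1.93, and of the other core proteins of that particle NOP58 was at 1.38, NOP56 at 1.28 and NOP1, the methyltransferase, at 0.52, with no call among them. The lowest members were JJJ1 (-0.80), UTP9 (-0.47) and SYO1 (-0.003). All of these were named after their values were seen.

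RNA polymerase I, which transcribes the large rRNA precursor, had 15 tested mRNAs of subunits and factors. Of these 12 were above 0 with a median of 1.44; edgeR and limma called 0 and DESeq2 1, and 5 were higher at an unadjusted p under 0.05. The largest subunit, RPA190, had 101 and 85.0 CPM in untreated WT, 8.21 and 11.5 in WT with rapamycin, 39.2 and 47.3 in untreated ubc9-1 and 18.4 and 12.97 in ubc9-1 with rapamycin. The 4 groups did not overlap, and its interaction was 1.77 ± 0.44 (adjusted p = 0.137 in edgeR, 0.0115 in DESeq2). RPA135 was at 1.44 ± 0.43. Without replicate 2 of untreated WT the list median was 0.465, with total counts 0.84 and with snoRNA factors 0.44. Ribosomal protein mRNAs had smaller values. The 81 of the large subunit had a median of 0.36, with 68 above 0 and 11 (13.58%) higher at an unadjusted p under 0.05, and the 56 of the small subunit a median of 0.47, with 49 above 0 and 5 (8.93%) higher; 0 were called by edgeR or limma, and DESeq2 called 1 of the small subunit. Under total counts these medians were -0.16 and -0.06, and by snoRNA scaling -0.62 and -0.50, because those scalings moved the median of all features to -0.56 and -0.96; relative to that median both lists stayed above under all 4 scalings.

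**Figure D5:**
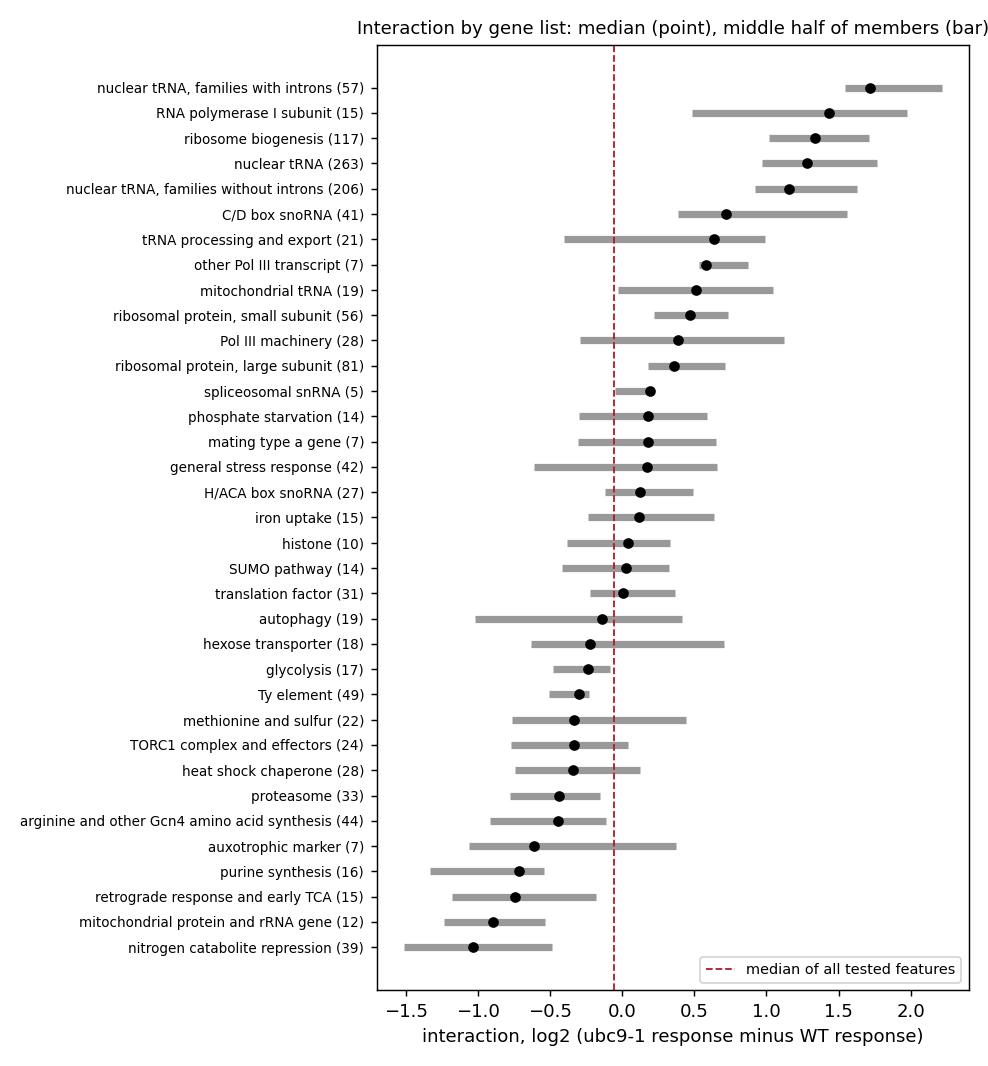
Interaction on the log2 scale (x axis) for each gene list with at least 5 tested members, the number tested in parentheses; points are medians over members, bars the interquartile range, and the dashed line the median of all features, -0.05. Intron tRNA genes (1.72), RNA polymerase I (1.44), ribosome biogenesis (1.33) and all nuclear tRNA (1.28) lie highest and nitrogen catabolite repression (-1.03) lowest.

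Genes under nitrogen catabolite repression, which are held off while good nitrogen sources last, lay on the other side. Of 39 tested, 36 were below 0 with a median of -1.03. At an unadjusted p under 0.05, 16 (41.0%) were lower and 0 higher, against 6.33% and 7.77% of all features. EdgeR called 1, DESeq2 8 and limma 0. The median response was 3.14 in WT and 1.93 in ubc9-1. It was called for 35 of the 39 members in WT and 26 in ubc9-1, against 1248 and 91 of all 6115 features. The absolute response was smaller in ubc9-1 for 36 of the 39. The median strain difference was 0.45 without drug and -0.72 with rapamycin. The list median was below 0 under all 4 scalings, at -1.58 with total counts and -1.96 with snoRNA factors, and lay between -1.31 and -0.91 in the fits that left out 1 library. The 4 ASP3 genes in the list have the same counts and are 1 measurement.

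DAL4, the allantoin permease, was the called member. It had 1.51 and 1.16 CPM in untreated WT, 16.86 and 17.996 in WT with rapamycin, 4.14 and 3.20 in untreated ubc9-1 and 7.66 and 6.39 in ubc9-1 with rapamycin. The groups did not overlap, and rapamycin went with a wider difference in WT. The interaction was -2.77 ± 0.49 with an adjusted p of 0.0445 in edgeR, from responses of 3.71 in WT and 0.94 in ubc9-1. The call was lost in each of the 8 fits that left out 1 library, between -2.95 and -2.58 with adjusted p up to 0.215. DAL1, allantoinase, is the divergent neighbour, named after its values were seen, and had 0.712 and 0.887 CPM in untreated WT, 11.6 and 13.1 in WT with rapamycin, 1.87 and 2.64 in untreated ubc9-1 and 3.79 and 5.53 in ubc9-1 with rapamycin. Its groups kept the same order without overlap, and its value was -2.88 ± 0.57 (adjusted p = 0.0683).

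The GATA factors that act on these genes are known to bind GATAAG. The 825 bases between DAL1 and DAL4 hold 4 matches on either strand, and a window of 300 bases chosen to contain them, chrIX:407980-408279 on the plus strand, is shown because both genes' values are among the lowest of the list. Capitals mark GATAAG or its reverse complement.
DAL1-DAL4: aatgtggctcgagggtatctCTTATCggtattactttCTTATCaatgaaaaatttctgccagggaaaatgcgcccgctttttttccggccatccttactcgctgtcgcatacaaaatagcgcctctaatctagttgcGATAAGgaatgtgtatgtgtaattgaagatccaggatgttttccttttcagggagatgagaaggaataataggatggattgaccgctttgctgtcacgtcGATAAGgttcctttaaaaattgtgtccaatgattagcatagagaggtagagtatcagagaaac
Of 5987 promoters of 250 bases, 12.6% held GATAAG on either strand, against 51.3% of the 39 genes of the list. The window was chosen for its matches, so its number is not set against other regions. The 250 bases next to DAL4 hold 0, since the nearest match starts 251 bases before the gene.

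Other members of the list ranged widely. CPS1, a vacuolar carboxypeptidase, was at -2.05 ± 0.53, DAL2, allantoicase, at -2.02, PUT2, an enzyme of proline use, at -1.74 and GDH2, the glutamate dehydrogenase that degrades glutamate, at -1.52, each with an unadjusted p under 0.05 and none called. The permeases GAP1 (-1.29), DAL5 (-1.14) and MEP2 (-0.48) had large responses in both strains. MEP2 had 7.74 and 5.71 CPM in untreated WT, 274 and 303 in WT with rapamycin, 5.74 and 3.11 in untreated ubc9-1 and 127 and 143 in ubc9-1 with rapamycin. The untreated groups overlapped while WT with rapamycin was above ubc9-1 with rapamycin. Above 0 were UGA4 (0.85), the GABA permease, DAL82 (0.57) and PUT1 (0.40), proline oxidase. These members were named after their values were seen.

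Purine synthesis genes were mostly below 0. Of 16 tested, 15 were below 0 with a median of -0.71. At an unadjusted p under 0.05, 7 were lower and 1 higher, against 6.33% and 7.77% of all features. EdgeR called 1, DESeq2 2 and limma 0. The called gene was ADE17, which encodes an enzyme of the last steps of the pathway. It had 5.87 and 3.88 CPM in untreated WT, 18.2 and 30.4 in WT with rapamycin, 12.2 and 9.34 in untreated ubc9-1 and 8.80 and 7.51 in ubc9-1 with rapamycin. WT with rapamycin was above and untreated WT below both ubc9-1 groups, and no 2 groups overlapped. The interaction was -2.73 ± 0.49 with an adjusted p of 0.0475 in edgeR. It was called in 1 of the 8 fits that left out 1 library, that without replicate 1 of untreated WT, at -3.01; in the other 7 it lay between -3.05 and -2.31. Bas1, the activator of the pathway, is known to bind TGACTC, as does Gcn4. The stretch from 250 to 81 bases before the start of ADE17 (chrXIII:509361-509530, minus strand, read toward the gene) is shown because it holds a match of those letters, in capitals.
ADE17: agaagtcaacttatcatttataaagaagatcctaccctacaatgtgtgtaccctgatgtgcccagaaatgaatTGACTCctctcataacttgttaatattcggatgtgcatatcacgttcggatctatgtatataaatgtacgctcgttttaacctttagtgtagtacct
Within 250 bases before the start, on either strand, 81.2% of the 16 purine genes and 6.2% of 5987 protein-coding genes held TGACTC. Among the other members, GCV1 (-1.84), SHM2 (-1.47), GCV2 (-1.47) and ADE3 (-1.28), enzymes of glycine and one-carbon metabolism, had an unadjusted p under 0.05 and no call. ADE2 went the other way, with counts of 14 and 9 in untreated WT, 0 and 0 in WT with rapamycin, 189 and 302 in untreated ubc9-1 and 112 and 200 in ubc9-1 with rapamycin; edgeR did not call it (adjusted p = 0.0622) and DESeq2 did. No fold is given against a group at 0, and without ADE2 the list median was -0.72. With total counts the list median was -1.26 and with snoRNA factors -1.63. These members other than ADE17 were named after their values were seen.

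Counts of some genes that serve as laboratory markers differed between the strains. Of the 7 in the list, 4 were above WT in ubc9-1 without drug. ADE2, as above, and TRP1, named after its values were seen, stood at or near 0 in WT, with 0 counts of TRP1 in all 4 WT libraries and 22 to 92 in those of ubc9-1. HIS3 had 91 to 563 counts in WT and 1179 to 2574 in ubc9-1. LYS2 did not pass the threshold between the strains without drug, at -0.25 (adjusted p = 0.645 in edgeR). With rapamycin it was lower in ubc9-1, at -1.36 (adjusted p = 0.0264 in edgeR). The labels give no genotype beyond the strain, and whether the strains differ at loci other than UBC9 was not tested. An effect of ubc9-1 on the interaction, purine genes included, cannot be told apart from that of any other difference between the strains. UBC9 itself had counts of 2 and 74 without drug in WT, 79 and 114 in WT with rapamycin, 307 and 554 in untreated ubc9-1 and 221 and 298 in ubc9-1 with rapamycin. All ubc9-1 libraries were above all WT libraries, which does not test the allele. The labels do not say what change the allele carries. Its interaction was -0.97 ± 0.85; without replicate 2 of untreated WT it rested on the 2 counts of the other library, at -4.61 with an adjusted p of 0.0316. SMT3, which encodes SUMO, was at -0.35 ± 0.58, and the 14 SUMO pathway genes had a median of 0.03, with 0 called by edgeR, DESeq2 or limma and 0 past an unadjusted p of 0.05.

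Other nutrient pathways had few calls. Among all features 6.33% were lower and 7.77% higher at an unadjusted p under 0.05. Genes of the retrograde response and early TCA cycle, which feed glutamate synthesis, had a median of -0.75 with 12 of 15 below 0 and 5 lower at an unadjusted p under 0.05, while edgeR, DESeq2 and limma called 0. GLT1, glutamate synthase, was at -1.46 ± 0.54 and GDH1, the synthetic glutamate dehydrogenase, at -1.17 ± 0.52. GLT1 had 116 and 104 CPM in untreated WT, 601 and 353 in WT with rapamycin, 150 and 96.5 in untreated ubc9-1 and 224 and 166 in ubc9-1 with rapamycin, with overlap of the untreated groups only. Arginine and other Gcn4-dependent amino acid genes had a median of -0.45, with 10 of 44 lower and 1 higher at an unadjusted p under 0.05, 0 called by edgeR and limma and 1 by DESeq2. Autophagy genes had a median of -0.14, with 5 of 19 lower at that level. ATG13, a TORC1 substrate that starts autophagy, was at -1.79 ± 0.63. Proteasome genes had a median of -0.44, with 26 of 33 below 0 and 5 lower, and TORC1 complex and effector genes -0.34, with 3 of 24 lower, among them TOR1 at -1.05 ± 0.47. In these 3 lists 0 were called by edgeR, DESeq2 or limma.

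In each of the remaining lists edgeR and limma called 0. Several of the counts below are near the shares of all features at an unadjusted p under 0.05, 7.77% higher and 6.33% lower. General stress response genes had a median of 0.17, with 5 of 42 higher and 1 lower at an unadjusted p under 0.05, and heat shock chaperones -0.34, with 1 of 28 higher and 2 lower. Methionine and sulfur genes had a median of -0.33 with 3 of 22 lower, glycolysis -0.24 with 0 of 17, hexose transporters -0.22 (0.04 without the 1 that had a group at 0) with 3 of 18 higher, and histones 0.04 with 0 of 10. Phosphate starvation genes were at 0.18 with 1 of 14 in each direction, iron uptake at 0.11 with 0 of 15, spliceosomal snRNAs at 0.19 with 0 of 5, the 7 genes of mating type a at 0.18 with 1 higher, and the 3 of mating type alpha at -0.71 with 0. The 7 auxotrophic markers were at -0.61, and at -0.39 without the 3 that had a group at 0. DESeq2 called 1 hexose transporter and 1 marker and none in the other lists of this paragraph. All 49 tested Ty elements were below 0 with a median of -0.30 and 0 past an unadjusted p of 0.05; copies of Ty share reads, so they are few independent measurements. Mitochondrial tRNA genes had a median of 0.51 with 3 of 19 higher, and the 12 other mitochondrial features were all below 0 with a median of -0.90 and 2 lower; none of either was called by edgeR, DESeq2 or limma. Of the 36 list medians in all, 11 changed sign with total counts and 16 with snoRNA factors, ribosomal protein, SUMO and H/ACA lists among them, as the median of all features moved; relative to that median all 36 kept their sign.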

How the data were processed

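RNA of 50 to 100 nt from 8 libraries of Saccharomyces cerevisiae, 2 in each of 4 groups, was analysed. Reads were aligned with TopHat2 2.0.13 to build R64 and counted with featureCounts 1.4.6-p3, per the submitters' processing notes. Per the file headers, the deposited raw counts are of read pairs per gene, without strand, with a read that aligned to several places counted at each, and with reads over overlapping genes not assigned. The authors also deposited CPM; these differed from count over column total by at most 4.4e-10 and were not used further. Reads of near-identical genes can therefore be shared, though the counts of the identical tG(GCC) genes were not alike. Antisense genes cannot be told apart.

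Counts were filtered (filterByExpr, minimum count 10), scaled by TMM and fitted with edgeR 4.0.16 in R 4.3.3 on all 8 libraries, with the interaction as a contrast of the 4 group means, and p-values were adjusted by Benjamini-Hochberg over 6115 features with a threshold of 0.05. Levels are CPM after TMM scaling and thus shares of a library. TMM factors ran from 0.695 to 1.37. The error shown beside fitted values is the log2 value over the root of its F statistic, and the 16 choices of 1 library per group give a range. Features named from the fit were the up to 10 highest and 10 lowest called ones whose mean count reached 50 and whose sign was the same in all 16 choices, with fixed RNA polymerase III and control genes, up to 3 called members at each end of a list or its 2 most counted members, and the 4 highest and 4 lowest tRNA families; other names are marked as chosen after their values were seen. The members, gene lists and tests were chosen with earlier results of these data known. Alternatives were other scalings, no filter, DESeq2 1.42.0, limma 3.58.1 on log2(CPM + 1), the replicate number as a block and each library left out; tRNA genes summed per family were added after seeing the data.

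On counts simulated for the interaction over 6035 features, 44 of 100 features with a log2 size of 2 and 98 of 100 with a size of 4 were called, and 7 of 5835 without a change (0.12%). The changed features were drawn only from those with a mean count of at least 50. The spread was that estimated from these libraries, and no difference between replicate numbers was simulated. These shares thus do not cover changes in features of lower count or data with a replicate effect. Gene starts and sequences were read from the R64 genome.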

Additional observations from a re-analysis of the deposited data

Results flagged for a closer look

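Each of the 10 called features passed the edgeR test of the difference between the strains in their response to the drug. SNR55, tS(AGA)D3, NOP8, LTV1, DAL4 and ADE17 lay near the threshold, with adjusted p of 0.0404 to 0.0475 in edgeR. These lost the threshold in at least 1 alternative. The log2 values were 8.24 for SNR60, 5.33 for SNR55, 5.31 for SNR58, 5.19 for SNR39B, 4.12 for EFB1, 3.49 for tS(AGA)D3, 2.82 for NOP8 and 2.68 for LTV1. They were -2.77 for DAL4 and -2.73 for ADE17. With 2 libraries per group, no group could be examined for a single sample far from the rest.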

How the results depend on the processing

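The count of called features moved with the processing: 10 as reported (8 higher, 2 lower), 5 (5 and 0) with DESeq2 size factors, with total counts and with limma, 23 (17 lower) with TMM factors from snoRNAs, 52 (44 and 8) without a filter, 126 (103 and 23) with DESeq2's Wald test, and 18 (16 and 2) with tRNA genes summed per family. Leaving out 1 library gave 4 to 15 calls, 4 to 11 higher and 0 to 4 lower. The called tRNA families numbered 0 as reported, 1 with snoRNA factors, 5 without a filter, 5 with DESeq2, and 0 to 1 with a library left out. With the replicate number as a block, 395 features (275 higher, 120 lower) and 23 families were called. Between groups, the differences of replicate 1 from 2 correlated at 0.0699 to 0.163, and the labels do not say what the numbers mark. Nuclear tRNA and 5S rRNA took a larger share of replicate 1 in 4 of 4 groups, and Ty elements and mRNA in 0 of 4, a hint of a shared difference from the data and not from the design. None of the 10 called features changed sign in any alternative run. Of these, 6 lost the threshold in at least 1 alternative, 60 times in all, and 15 other named features or families gained it, 26 times in all. Of the named values not called, 28 changed sign in an alternative, and of 36 list medians 20 did. The cause of these shifts was not tested. Features of low count and effects under a log2 size of 2 are poorly resolved with 2 libraries per group.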
